A study of Mus musculus with 12 samples.

Results

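The comparison described here set cultured mouse cardiac fibroblasts given the kinase inhibitor AG1296 at 1 uM against the same kind of culture left untreated. Its 6 arrays, 3 for each group, were chosen by their sample titles from the 12 arrays of the study. The other arrays held cells given AG1296 at 10 uM or the ligand PDGF-AB at 50 ng/ml, with 3 arrays each. The cells are colony-forming cardiac fibroblasts (cCFU-F), a stromal population of the heart that grows as colonies in culture. They came from C57BL/6 males aged 12 weeks, were sorted as positive for SCA1 and PDGFRα and negative for the endothelial antigen CD31, and were used as P0 bulk cultures. All groups therefore share the strain, sex, age, sort and culture, and none carries an engineered allele. How long the cells were treated, and in which vehicle, is not stated in the sources used, so a vehicle effect cannot be told apart from that of AG1296. The labels do not say whether the 3 arrays of a group came from separate cultures or animals. The p-values therefore measure the spread between these arrays, which may be technical.

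Platelet-derived growth factors are secreted dimers that bind the receptor tyrosine kinases PDGFRα and PDGFRβ. Receptor activation feeds the RAS-ERK, PI3K-AKT and phospholipase C pathways and drives proliferation and migration of mesenchymal cells. AG1296 competes with ATP in the kinase domain of these receptors and also binds KIT and, more weakly, FGF receptors. In the heart PDGFRα marks interstitial fibroblasts, which make the collagens, proteoglycans and elastic microfibrils of the stroma.

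Most endothelial, cardiomyocyte and leukocyte markers lay below the array medians, and most fibroblast identity genes did not. Levels below are log2 expression as deposited, and the array medians lay between 4.02 and 4.13. In untreated cells the fibroblast markers Vim, Ddr2, Tcf21 and Thy1 stood at 12.85 ± 0.04, 9.51 ± 0.07, 8.18 ± 0.14 and 8.16 ± 0.12 (mean ± SD, n = 3). None of these markers passed the test at 1 uM. Ly6a, which encodes SCA1, was not analysed here. Pecam1, which encodes CD31, lay below every array median in both groups, at 3.02 ± 0.16 and 3.10 ± 0.16. The mean over all 12 arrays lay below every array median for 6 of 27 fibroblast identity genes. It did so for 11 of 15 endothelial, 11 of 15 cardiomyocyte and 15 of 18 leukocyte markers. The same held for 7 of 14 pericyte and smooth muscle, 6 of 14 epicardial and mesothelial, 6 of 10 Schwann cell, and 5 of 6 erythroid and adipocyte markers. Tnnt2, cardiac troponin T, was above it, at 7.01 ± 0.05 untreated and 6.89 ± 0.12 at 1 uM. Over the genes, which are no replicates of each other, Pearson's r was 0.992 to 0.996 between arrays of 1 group and 0.992 to 0.994 between a 1 uM and an untreated array.

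At 1 uM several matrix, Wnt inhibitor and IGF genes rose, among them Dcn, Sfrp1 and Igf1, and Pdgfra, Ptgs2 and Plau were among the genes that fell. Of 19938 genes tested with limma, 639 (3.2%) passed an adjusted p of 0.05 by the Benjamini-Hochberg method, and such genes are named called. Of these, 374 (1.88% of all genes) were higher and 265 (1.33%) lower. A change of 2-fold or more was seen for 41 of the former and 40 of the latter. The shares of 1.88% higher and 1.33% lower are the background for each count of list members below. The lists were chosen with earlier results of these data known. The median over all genes was a log2 fold change of -0.01, and 46.6% of genes had a positive one. For 638 of the 639 called genes the 3 treated arrays all lay on 1 side of the 3 untreated ones, as they did for 20.3% of all genes. Treated replicates below are the 1 uM arrays. When treated replicate 1, 2 or 3 was dropped, 349, 383 or 439 genes were called, and 390, 405 or 397 when untreated replicate 1, 2 or 3 was. In all 6 of these fits 296 of the 639 genes passed. Where a gene's call was lost in such a fit, the adjusted p given as "up to" is the highest over all alternatives tried for it, 13 for most genes and 12 for those that a filter on dim genes removed. RNA was measured in bulk, so fewer cells of a type and less RNA per cell cannot be told apart.

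**Figure D1:**
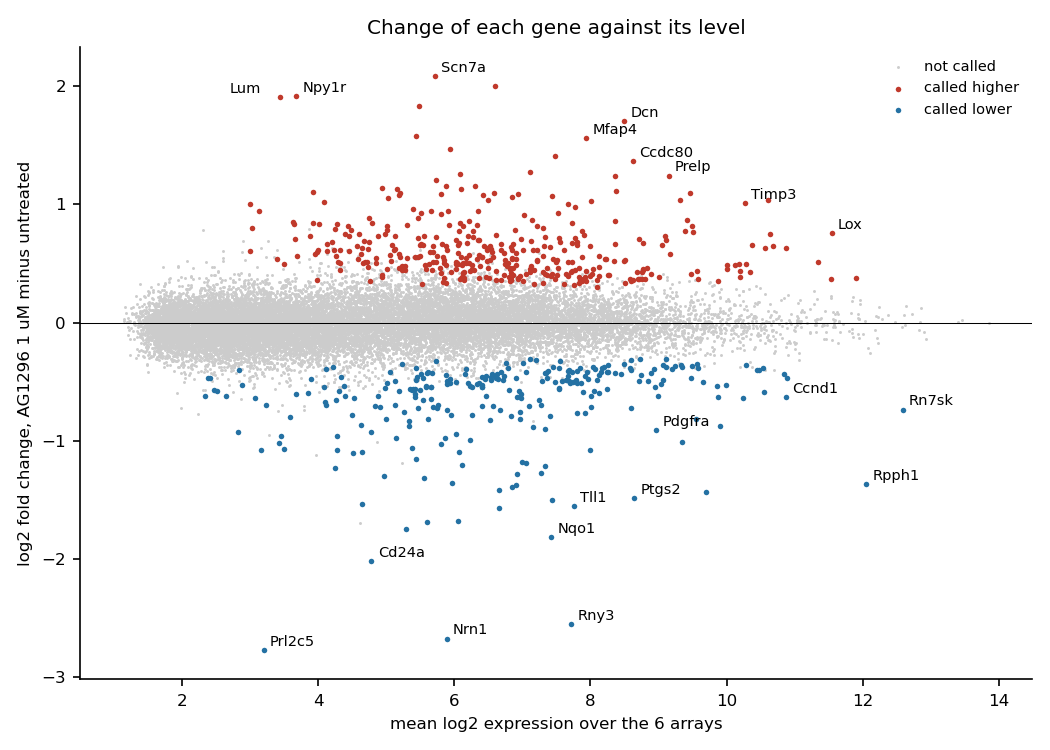
Each point is 1 of the 19938 genes: the x axis is its mean log2 expression over the 6 arrays compared and the y axis its log2 fold change, AG1296 1 uM minus untreated. The 374 genes called higher are red, the 265 called lower are blue, and most of the grey genes that were not called lie close to 0 at every level.

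The receptor that the inhibitor targets and the cells were sorted on was lower at the transcript level. Pdgfra read 9.49, 9.41 and 9.35 on the untreated arrays and 8.52, 8.46 and 8.55 on the 1 uM arrays. The highest treated array was below the lowest untreated one, and the log2 fold change was -0.91 ± 0.09 (SE here and below; adjusted p = 3.84e-05). Pdgfrb, the second receptor, read 9.06, 8.81 and 8.97 against 9.23, 9.16 and 9.27, a difference of 0.27 ± 0.10 that did not pass (adjusted p = 0.2). The ligand genes Pdgfa, Pdgfb, Pdgfc and Pdgfd differed by 0.22, -0.19, 0.39 and 0.21 with adjusted p of 0.25, 0.607, 0.222 and 0.328. The other AG1296 targets Kit and Fgfr1 did not pass either (adjusted p = 1 and 0.25), and Kit lay below every array median. Pdgfrl, which encodes a secreted protein similar to the receptor's extracellular part, rose from 5.04, 5.38 and 5.12 to 5.78, 5.98 and 5.99 (0.74 ± 0.13; adjusted p = 0.0047). Of the 20 genes of PDGF receptors, ligands and adaptors, 3 rose and 1 fell, with a median of 0.17. The adaptor genes Plcg1 (0.39; adjusted p = 0.0217) and Pik3r1 (0.46; adjusted p = 0.0378) also passed. Leaving out single arrays ended both calls: AG1296 1 uM replicate 1 or 3 or any untreated array for Plcg1 (up to 0.095), and AG1296 1 uM replicate 1 or 2 or any untreated array for Pik3r1 (up to 0.157).

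Among 18 other kinase genes that AG1296 binds or that belong to related receptor families, 1 rose and 1 fell. Tek, the angiopoietin receptor, rose from 3.45, 3.57 and 3.53 to 4.23, 4.45 and 4.06 (0.73 ± 0.10; adjusted p = 0.000761). Its untreated level lay below every array median. Met, the HGF receptor, fell by 0.43 (adjusted p = 0.043), a call that was lost without any 1 of the 6 arrays (up to 0.154). Tek was also the 1 gene called among the 15 endothelial markers, while the defining markers Pecam1, Cdh5 and Kdr stood at 3.02, 3.09 and 3.11 in untreated cells. Of those 15 markers 6 were positive and the median was -0.07. Their summed level, which the brightest members dominate, was 9.46 to 9.62 on the untreated and 9.71 to 9.85 on the 1 uM arrays. The part of that level in the rise of Tek was not tested.

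Feedback genes of the ERK pathway, which are switched on by ERK and then dampen it, moved down in part. Of 20 measured, 5 fell and 0 rose, where 1.33% of all genes fell and 1.88% rose. Among the 20, 6 were positive and the median was -0.15. Dusp6, the cytoplasmic phosphatase of ERK, read 7.24, 7.39 and 7.27 untreated and 6.74, 6.59 and 6.67 at 1 uM (-0.64 ± 0.10; adjusted p = 0.00198). Dusp4, its nuclear relative, read 9.35, 9.23 and 9.30 against 8.77, 8.81 and 8.76 (-0.52 ± 0.08; adjusted p = 0.00256). The groups did not overlap for either phosphatase. Spry2, Spred3 and Etv4 fell by 0.39, 0.54 and 0.53 (adjusted p = 0.0266, 0.0356 and 0.0387). These 3 calls were each lost when single arrays were left out (up to 0.165), and the 6 such fits called 2 to 4 members: Spry2 was lost without any of them but AG1296 1 uM replicate 3, Spred3 without any but untreated replicate 3, and Etv4 without each. Spry4 and Etv5, further targets of the pathway named after their values were seen, differed by -0.11 and 0.00 (adjusted p = 0.711 and 0.997).

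Immediate early factors gave a mixed picture. Of 25 measured, 5 fell and 0 rose, but 13 were positive and the median was 0.00; after quantile normalization it was -0.01. Fosb, an AP-1 subunit, read 6.11, 6.24 and 5.98 against 5.38, 5.55 and 5.23 (-0.72 ± 0.10; adjusted p = 0.00103). Plaur, the urokinase receptor and a target of AP-1, fell by 0.62 ± 0.09 (adjusted p = 0.00084). Ier2, Klf6 and Fosl1 fell by 0.50, 0.31 and 0.43 (adjusted p = 0.0273, 0.0397 and 0.0438). Their calls were lost without untreated replicate 1 or 2 or treated replicate 2 or 3, and 1 or more of them without each other array (up to 0.171), so that 2 or 3 of the 5 remained called. Egr1 and Fos, the best known members and named after their values were seen, stood at 0.13 and 0.07 (adjusted p = 0.564 and 0.914).

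The cell cycle genes showed 1 large fall, in a G1 cyclin, and little else. Ccnd1, cyclin D1, which couples mitogens to entry into the cycle, read 11.23, 11.15 and 11.18 untreated and 10.57, 10.53 and 10.58 at 1 uM. That is a difference of -0.63 ± 0.08 (adjusted p = 0.000296) between groups that did not overlap. Of 20 G1 cyclins and CDK inhibitors 2 fell, the other being Cdkn2a (-0.47; adjusted p = 0.0269), whose call was lost without any 1 of the treated arrays or untreated replicate 1 or 2 (up to 0.125). None of 27 mitosis genes was called by limma, 17 were positive and the median was 0.02. Top2a and Mki67, named after their values were seen, differed by 0.20 and -0.09 (adjusted p = 0.523 and 0.858). Of 25 DNA replication genes 1 rose, Rrm2, a subunit of ribonucleotide reductase (0.35; adjusted p = 0.0391), and that call was lost without any 1 of the 6 arrays (up to 0.189). Among 23 FOXO targets and PI3K feedback genes, Pdk4 and Txnip, which restrain glucose oxidation and uptake, fell by 0.71 and 0.49 (adjusted p = 0.00252 and 0.00458). Bcl6, a transcriptional repressor, rose by 0.83 (adjusted p = 0.0105), but not without untreated replicate 1 or treated replicate 1 (up to 0.0646).

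Several matrix genes were among the 30 largest rises. Elastic fibres are bundles of elastin on a scaffold of fibrillin microfibrils. Of 18 such genes 6 rose and 0 fell, where 1.88% of all genes rose and 1.33% fell. The median was 0.30 and 13 were positive, against a median of -0.01 over all genes, and the same count of 6 was called without any 1 of the 6 arrays. Mfap4, a microfibril-associated glycoprotein, read 7.14, 7.11 and 7.22 untreated and 8.69, 8.72 and 8.76 at 1 uM (1.56 ± 0.09; adjusted p = 4.9e-07). Fbln5, which helps to place elastin on microfibrils, rose from 8.83, 8.77 and 8.81 to 9.87, 9.73 and 9.92 (1.03 ± 0.08; adjusted p = 5.99e-06). Lox, which crosslinks elastin and collagen, rose from 11.19, 11.15 and 11.14 to 11.92, 11.96 and 11.88 (0.76 ± 0.09; adjusted p = 0.00026). The 3 treated arrays of each of these genes lay above all untreated ones. Svep1, a large cell adhesion protein of the matrix, and Ltbp2, a microfibril protein related to the latent TGF-beta binding proteins, rose by 1.41 and 0.65 (adjusted p = 2.39e-06 and 0.000984). The sixth gene, Fibin, rose by 1.83 (adjusted p = 2.33e-07), but it encodes a secreted signalling protein that is not an established elastic fibre component. Eln itself, named after its value was seen, did not pass (0.08; adjusted p = 0.873).

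Small leucine-rich proteoglycans coat collagen fibrils and regulate their diameter. Of 14 measured, 5 rose and 0 fell, and the median was 0.23. Dcn, decorin, read 7.69, 7.63 and 7.61 untreated and 9.43, 9.47 and 9.15 at 1 uM, a 3.26-fold difference (1.70 ± 0.10; adjusted p = 8.21e-07). Prelp, which links collagen to basement membranes, rose from 8.52, 8.57 and 8.48 to 9.81, 9.80 and 9.70 (1.24 ± 0.11; adjusted p = 1.12e-05). Lum, lumican, read 2.39, 2.50 and 2.58 untreated and 4.49, 4.49 and 4.21 at 1 uM (1.91 ± 0.13; adjusted p = 2.1e-06). No treated array overlapped an untreated one for these 3 genes, which the rule for naming the largest rises required. Lum began below every array median, where background compresses a fold change. Fmod and Aspn rose by 0.61 and 0.70 (adjusted p = 0.00788 and 0.0448). The Aspn call was lost without untreated replicate 1 or 3 or treated replicate 1 or 2 (up to 0.185).

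Collagen genes rose in part. Of 23 fibrillar and associated collagens 7 rose and 0 fell, 16 were positive and the median was 0.11. The clearest were Col14a1 and Col12a1, which bind to the surface of fibrils, and Col11a1, a minor fibril component. Col14a1 read 5.76, 5.68 and 5.72 against 6.54, 6.58 and 6.50 (0.82 ± 0.08; adjusted p = 5.28e-05). Col12a1 and Col11a1 rose by 0.82 and 0.71 (adjusted p = 0.000488 and 0.000216), and the short-chain collagen gene Col8a1 by 0.49 (adjusted p = 0.00231). Among the main fibril chains, Col1a1 read 11.11, 10.99 and 11.15 against 11.64, 11.49 and 11.66 (0.51 ± 0.10; adjusted p = 0.0131). Col5a2 and Col3a1 rose by 0.45 and 0.37 (adjusted p = 0.0306 and 0.0481), while Col1a2, named after its value was seen, stood at 0.11 (adjusted p = 0.723). Leaving out 1 array left 4 to 6 calls. Col1a1 was lost without untreated replicate 2 or treated replicate 1 or 3 (up to 0.0684), Col5a2 without untreated replicate 1 or 3 or treated replicate 1 or 2 (up to 0.129), and Col3a1 without any 1 of the 6 arrays (up to 0.164).

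Adhesive and matricellular glycoproteins moved both ways. Of 25 measured, 5 rose and 2 fell, with a median of 0.09. Fndc1, a secreted protein with fibronectin type III domains, read 5.63, 5.57 and 5.60 untreated and 7.61, 7.71 and 7.48 at 1 uM (2.0 ± 0.09). It had the smallest adjusted p of all genes tested, 8.55e-08. Thbs2, an anti-angiogenic thrombospondin, rose by 0.78 ± 0.09 (adjusted p = 0.000135). Mgp, an inhibitor of calcification, read 7.47, 7.38 and 7.28 against 6.72, 6.51 and 6.46 (-0.82 ± 0.10; adjusted p = 0.000307). Sparc, Igfbp7 and Postn rose by 0.38, 0.49 and 0.43 (adjusted p = 0.013, 0.0153 and 0.0407), and Tnc fell by 0.32 (adjusted p = 0.0449). Leaving out 1 array left 2 to 4 rises and 1 fall. Without untreated replicate 3 or treated replicate 1 or 2 none of these 4 passed, Sparc and Igfbp7 also failed without untreated replicate 2, Postn without untreated replicate 1, Tnc without untreated replicate 1 or 2, and Igfbp7, Postn and Tnc without AG1296 1 uM replicate 3 (up to 0.168). Fn1, fibronectin, named after its value was seen, differed by 0.03 (adjusted p = 0.968).

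The basement membrane list held 4 rises and 1 fall among 21 genes. Lama4, the laminin chain of vascular and stromal basement membranes, read 6.91, 6.98 and 6.79 against 8.03, 8.08 and 7.79 (1.07 ± 0.09; adjusted p = 1.29e-05). Lama2 and Hspg2, which encode another laminin chain and perlecan, rose by 0.53 and 0.56 (adjusted p = 0.0023 and 0.00877). Nid1, nidogen, which joins the laminin and collagen IV networks, fell from 10.19, 10.16 and 10.19 to 9.52, 9.56 and 9.57 (-0.63 ± 0.08; adjusted p = 0.000296). The lowest untreated array of Nid1 stood above the highest treated one. Col4a1 rose by 0.39 (adjusted p = 0.0424), a call lost without any 1 of the 6 arrays (up to 0.126).

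Genes that modify or cleave matrix differed among themselves. Of 21 genes of collagen crosslinking and hydroxylation 2 rose and 1 fell. Plod2, a lysyl hydroxylase that directs crosslink type, rose by 0.75 (adjusted p = 0.0023), as did Lox above. Tll1, a tolloid protease of the family that removes the C-propeptides of procollagens, read 8.63, 8.53 and 8.45 untreated and 7.14, 6.94 and 6.88 at 1 uM. It fell by 1.55 ± 0.09 (adjusted p = 5.55e-07). Of 18 metalloproteinases and TIMPs, Timp3, a matrix-bound inhibitor, rose from 9.73, 9.79 and 9.78 to 10.86, 10.76 and 10.71 (1.01 ± 0.08; adjusted p = 8.54e-06). Mmp2 rose by 0.37 (adjusted p = 0.0386), but only AG1296 1 uM replicate 2 could be left out without losing the call (up to 0.147). Of 20 ADAMTS genes 3 rose and 0 fell. They were Adamtsl2, a fibrillin-binding member without protease activity (1.14; adjusted p = 2.01e-05), and the aggrecan-cleaving Adamts5 and Adamts1 (both 0.65; adjusted p = 0.000347 and 0.000871).

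Integrins, the receptors that bind this matrix, showed 3 rises and 2 falls among 20 genes. Itga11, a collagen receptor subunit of fibroblasts, read 4.19, 4.55 and 4.76 against 5.88, 5.25 and 5.54 (1.06 ± 0.19; adjusted p = 0.00529). Itgb8, which takes part in TGF-beta activation, rose by 0.83 (adjusted p = 0.000541), and Itga5, the fibronectin receptor subunit, fell by 0.48 (adjusted p = 0.00772). Itga1 (0.68; adjusted p = 0.0269) and Itgbl1 (-0.39; adjusted p = 0.0277) passed with all arrays, but each call was lost without any 1 of the 6 (up to 0.107).

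**Figure D2:**
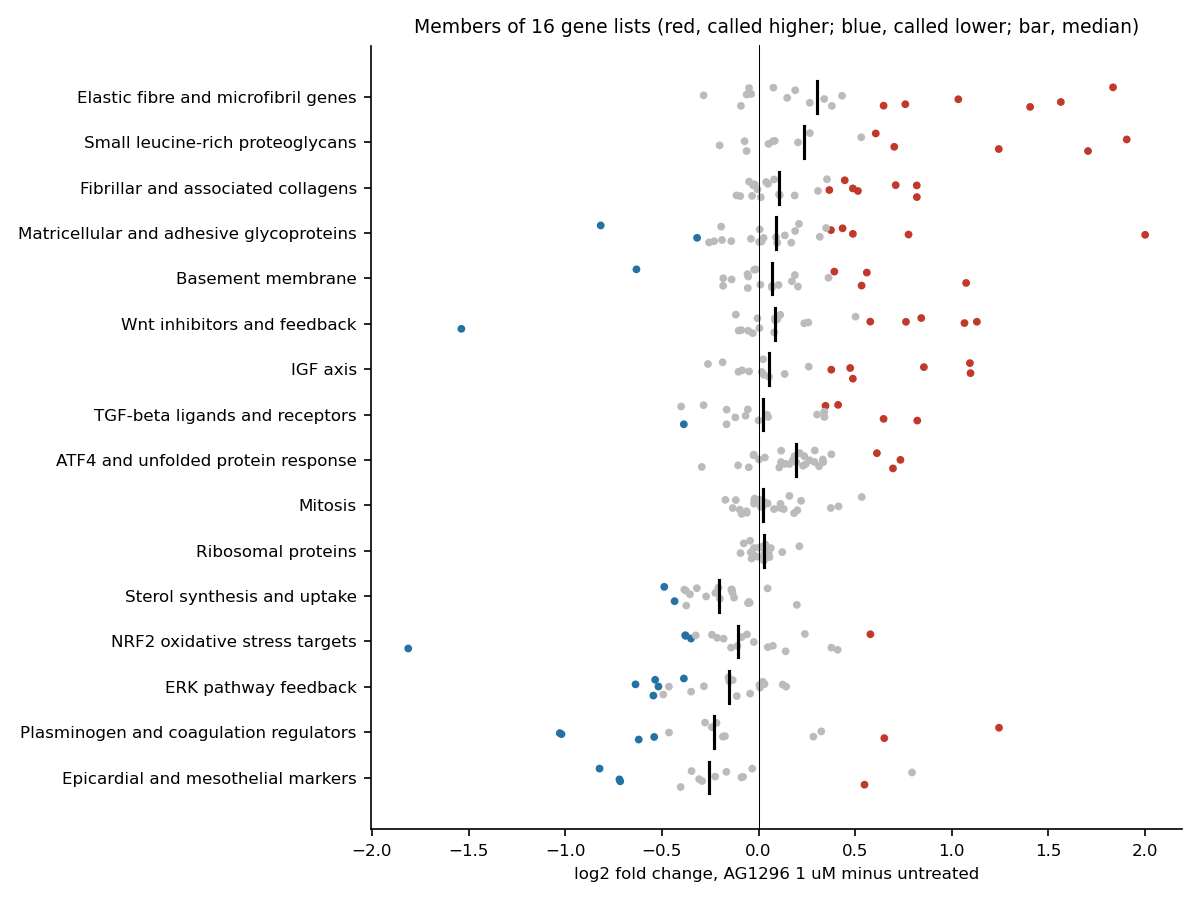
Each point is 1 measured gene of 16 lists, placed on the x axis by its log2 fold change, AG1296 1 uM minus untreated; red points were called higher, blue points lower, grey points were not called, and the black bar is the list's median. Elastic fibre genes have a median of 0.30 and 6 red points, while the medians of the mitosis and ribosomal protein lists, with no called gene, lie at 0.02 and 0.03.

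The plasminogen system activates plasmin at the cell surface and clears fibrin and matrix. Its activator gene Plau and receptor gene Plaur were lower, and so was the inhibitor gene Serpinb2. Of 14 genes of this system and of coagulation, 4 fell and 2 rose, and the median was -0.23. Plau, the urokinase that activates plasminogen, read 6.46, 6.34 and 6.16 untreated and 5.50, 5.51 and 4.87 at 1 uM (-1.03 ± 0.16; adjusted p = 0.00168). Its receptor gene Plaur fell by 0.62, as given above, and Serpinb2, an inhibitor of urokinase, fell from 4.13, 3.81 and 3.88 to 2.76, 3.04 and 2.97 (-1.02 ± 0.11; adjusted p = 0.000127). The mean of Serpinb2 lay below every array median in both groups. F3, tissue factor, which starts coagulation, rose by 0.65 ± 0.12 (adjusted p = 0.00619), and its inhibitor Tfpi fell by 0.54 ± 0.10 (adjusted p = 0.00963). The Tfpi call was lost without AG1296 1 uM replicate 1 (0.0567). Serpinf1, a serpin that is an anti-angiogenic factor and no protease inhibitor, rose from 7.79, 7.78 and 7.64 to 8.98, 9.0 and 8.97 (1.24 ± 0.08; adjusted p = 1.22e-06).

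Several Wnt inhibitors rose and Dkk2 fell. Of 21 Wnt inhibitors and feedback genes 5 rose and 1 fell, and the median was 0.09. Frzb and Sfrp1, secreted decoys of Wnt ligands, read 9.06, 9.22 and 9.10 against 9.88, 9.92 and 9.87, and 7.35, 7.29 and 7.27 against 8.13, 8.19 and 8.11. They rose by 0.76 and 0.84 (adjusted p = 0.000187 and 7.55e-05). Apcdd1, a membrane-bound inhibitor, rose by 1.07, and Nkd2, a Dishevelled antagonist, by 0.58 (adjusted p = 2.67e-05 and 0.0023). Sfrp2 spread more in untreated cells, at 4.14, 4.72 and 4.91, and its rise of 1.13 ± 0.28 (adjusted p = 0.0415) was lost without any 1 of the 6 arrays (up to 0.179). Dkk2, a ligand of the LRP co-receptors, moved the other way, from 5.39, 5.51 and 5.33 to 3.92, 3.85 and 3.85 (-1.54 ± 0.11; adjusted p = 2.75e-06), which is below every array median. Of 29 Wnt ligands and receptors 4 rose and 0 fell, and 24 were positive with a median of 0.09. Kif26b, a kinesin in the non-canonical Wnt5a and ROR pathway, rose by 0.74 (adjusted p = 0.00231). Fzd4, Fzd6 and Lrp5 rose by 0.48, 0.52 and 0.45 (adjusted p = 0.00874, 0.0125 and 0.0193). The 3 receptor calls depended on single arrays: Fzd4 on AG1296 1 uM replicate 1 and untreated replicate 3, Fzd6 on these and untreated replicate 2, and Lrp5 on all but AG1296 1 uM replicate 1 (up to 0.0873).

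Some ligands and antagonists of the BMP and TGF-beta families rose. Of 27 BMP genes 3 rose and 0 fell, where 1.88% of all genes rose and 1.33% fell. Bmp4 read 5.89, 5.94 and 5.80 untreated and 7.02, 7.10 and 6.76 at 1 uM (1.08 ± 0.12; adjusted p = 0.000118). Bmp6, a second ligand, and Fst, follistatin, an antagonist of activins and BMPs, rose by 0.68 and 0.86 (adjusted p = 0.000216 and 9.29e-05). Of 18 TGF-beta ligands and receptors 4 rose and 1 fell, with a median of 0.02. Tgfb2 read 6.91, 6.71 and 6.79 against 7.76, 7.55 and 7.56 (0.82 ± 0.12; adjusted p = 0.00124), and Ltbp2 is given above. Tgfb3 and Tgfb1 rose by 0.41 and 0.35, and Lrrc32, which anchors latent TGF-beta, fell by 0.39 (adjusted p = 0.0259, 0.035 and 0.036). Each of these 3 calls was lost without most single arrays (up to 0.164); the arrays that could be left out were untreated replicate 2 for Tgfb3, AG1296 1 uM replicate 2 for Tgfb1 and none for Lrrc32. Contractile genes, which TGF-beta is known to raise, moved both ways, and a link to these ligands was not tested. Of their list 10% were called, where 3.2% of all genes were. Of 20 myofibroblast genes 1 rose, Actn1 (0.50; adjusted p = 0.00219), and 1 fell, Cnn1, calponin (-0.70; adjusted p = 0.00337). Acta2, smooth muscle actin, named after its value was seen, stood at -0.02 (adjusted p = 0.973). Of 21 YAP and SRF targets, Cnn1 was the fall and Lats2 the 1 rise (0.36; adjusted p = 0.0282), a call lost without any array but AG1296 1 uM replicate 2 (up to 0.139).

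The IGF axis, a growth and survival pathway, held 6 rises and 0 falls among 17 genes, with a median of 0.05. Over all genes 1.88% rose and 1.33% fell. Igf1, the ligand, read 6.12, 6.04 and 5.93 untreated and 7.22, 7.15 and 7.01 at 1 uM (1.10 ± 0.09; adjusted p = 8.65e-06). Igfbp2 and Igfbp3, which carry IGFs and limit or prolong their action, rose by 0.86 and 1.09 (adjusted p = 0.000192 and 0.00126). Igfbp7, Stc2 and Pappa, the last a protease of IGF binding proteins and Stc2 its inhibitor, rose by 0.49, 0.47 and 0.38 (adjusted p = 0.0153, 0.0181 and 0.0436). Leaving out 1 array left 3 or 4 of the 6 calls. Pappa was lost without each, Igfbp7 without any but untreated replicate 1, and Stc2 without untreated replicate 1 or 3 or treated replicate 1 (up to 0.175).

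Vascular and guidance factors split by gene. Of 23 angiogenic factors 3 rose and 3 fell. Vegfc and Vegfd, ligands of the lymphatic VEGF receptor, read 5.87, 5.94 and 5.95 against 6.67, 6.70 and 6.55, and 9.02, 9.02 and 8.98 against 9.80, 9.74 and 9.80. They rose by 0.72 and 0.77 (adjusted p = 0.000143 and 0.000157), and neither pair of groups overlapped. Esm1, a secreted proteoglycan that binds growth factors, fell from 6.90 on each untreated array to 5.44, 5.22 and 5.01 (-1.68 ± 0.18; adjusted p = 7.92e-05). Cxcl12, a chemokine that retains stem and immune cells, fell from 6.73, 6.62 and 6.50 to 5.43, 5.63 and 5.50 (-1.10 ± 0.09; adjusted p = 9.5e-06). Angptl1 rose by 0.70 and Fgf7 fell by 0.54 (adjusted p = 0.024 and 0.0277). Angptl1 was lost without untreated replicate 1 or 2 or treated replicate 2 or 3 and Fgf7 without any 1 of the 6 arrays (up to 0.114). Of 29 semaphorin and axon guidance genes 3 rose and 5 fell. Sema3d rose by 1.11 ± 0.09 (adjusted p = 5.21e-06), whereas its relatives Sema3a and Sema3e fell by 1.31 and 0.74 (adjusted p = 4.61e-05 and 0.0014). Nrp2, a receptor of class 3 semaphorins, and Efnb2, an ephrin, fell by 0.52 and 0.49 (adjusted p = 0.00163 and 0.00353). Leaving out 1 array left 1 or 2 of the 3 rises and 4 or 5 of the 5 falls on this list. Ntn1 (0.39) was lost without any 1 of the 6 arrays, Sema3c (0.42) without any but AG1296 1 uM replicate 3, and Unc5c (-0.43) without untreated replicate 1 or 3 or treated replicate 3 (up to 0.161).

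Genes of the start of prostaglandin synthesis fell. Of 19 genes on the prostaglandin list 3 fell and 0 rose, and 3 fell without any 1 of the 6 arrays. Ptgs2, the inducible cyclooxygenase, read 9.39, 9.44 and 9.33 untreated and 7.98, 7.96 and 7.77 at 1 uM (-1.48 ± 0.10; adjusted p = 1.22e-06). Pla2g4a, the phospholipase that releases its substrate arachidonic acid, read 7.61, 7.68 and 7.47 against 6.42, 6.53 and 6.28 (-1.18 ± 0.10; adjusted p = 1.36e-05). Ch25h, which fell by 1.06 (adjusted p = 7.06e-05), makes an oxysterol and no prostaglandin. S1pr3, a receptor of sphingosine-1-phosphate, read 6.09, 6.06 and 6.34 against 4.57, 4.39 and 4.29 (-1.74 ± 0.10; adjusted p = 5.55e-07). The other called members of its list of 17 were the phosphatase gene Plpp3 (0.41; adjusted p = 0.0165) and S1pr1 (-0.60; adjusted p = 0.0472). Plpp3 was lost without untreated replicate 2 or 3 or treated replicate 1 or 3, and S1pr1 without untreated replicate 2 or 3 or treated replicate 1 or 2 (up to 0.2). Among 35 chemokines and cytokines, the fall of Cxcl12 was joined by that of Tnfaip3, an NF-kappaB inhibitor (-0.72; adjusted p = 0.00119), and 1 gene rose, Tnfaip6, a hyaluronan-binding protein (0.67; adjusted p = 0.00277).

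Some markers of fibroblast identity and of lineage were called. Of 27 identity genes 1 rose and 3 fell, so 14.8% were called where 3.2% of all genes were. The osteochondrogenic, adipogenic and retinoic acid lists below had 5.88%, 11.8% and 21.1% called. Dpt, dermatopontin, a marker of quiescent adventitial fibroblasts, rose from 3.22, 3.09 and 3.39 to 4.17, 4.12 and 3.91 (0.83 ± 0.13; adjusted p = 0.00272), starting below every array median. Besides Pdgfra, Prrx1 and Gsn fell by 0.42 and 0.36 (adjusted p = 0.0277 and 0.0467). Gsn was lost without any 1 of the 6 arrays and Prrx1 without any but untreated replicate 3 (up to 0.168). Sox9 was the 1 gene called of 17 osteochondrogenic genes (0.53; adjusted p = 0.00273). Of 17 adipogenic genes, Fabp5 and Cebpd rose by 0.66 and 0.73 (adjusted p = 0.00157 and 0.00808), and Cebpd was lost when just the 6 arrays were fitted (0.0526). In the retinoic acid list of 19, Aldh1a3, which makes retinoic acid, rose by 0.59 (adjusted p = 0.00515), and Crabp1, which binds it in the cytoplasm, fell by 0.74 (adjusted p = 0.00235). Aldh1a1 and Rarb rose by 0.37 and 0.35 (adjusted p = 0.0213 and 0.0382), and each was lost without any 1 of the 6 arrays (up to 0.157).

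Epicardial and mesothelial markers were lower in part. Of 14, 3 fell and 1 rose, 2 were positive and the median was -0.26. Upk1b, a uroplakin of mesothelium, read 6.83, 6.96 and 7.01 untreated and 6.15, 6.15 and 6.04 at 1 uM (-0.82 ± 0.09; adjusted p = 0.000109), while its relative Upk3b rose by 0.55 (adjusted p = 0.00511). Lrrn4 and Krt19 both fell by 0.72 (adjusted p = 0.0106 and 0.0158). Lrrn4 was lost without untreated replicate 3 or treated replicate 2, and Krt19 without untreated replicate 1 or 2 or treated replicate 2 or 3 (up to 0.0692). The summed level of the list was 9.05 to 9.07 on the untreated and 8.75 to 8.80 on the 1 uM arrays. The defining markers Msln and Muc16 lay below every array median in both groups, and Wt1 stood at 4.35 ± 0.09 and 4.26 ± 0.18. Of 14 pericyte and smooth muscle markers 2 fell, Mcam and Cnn1, while 8 were positive and the median was 0.02. Mcam, an adhesion molecule also made by fibroblasts in culture, read 7.38, 7.35 and 7.35 against 6.08, 5.88 and 5.87 (-1.42 ± 0.09; adjusted p = 1.15e-06). The defining pericyte markers Rgs5 and Cspg4 were below every array median, at 2.55 and 3.55 in untreated cells and 2.57 and 3.62 at 1 uM. The summed level of that list, Mcam included, was 9.04 on every untreated array and 8.45 to 8.52 on the 1 uM arrays. The part of a change in cell makeup in these falls was not tested.

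Genes of oxidative and xenobiotic defence fell in part. NRF2 is a transcription factor that binds antioxidant response elements, and of 21 of its targets 4 fell and 1 rose, with a median of -0.11. Nqo1, a quinone reductase, read 8.33, 8.46 and 8.18 untreated and 6.50, 6.59 and 6.45 at 1 uM, a 3.51-fold lower level (-1.81 ± 0.12; adjusted p = 1.15e-06). Srxn1, Gclm and Pgd fell by 0.38, 0.38 and 0.35 (adjusted p = 0.0183, 0.0449 and 0.0481), and Gstm1, 1 of a family of near-identical genes and therefore uncertain, rose by 0.58 (adjusted p = 0.0142). Leaving out 1 array left 1 or 2 of the 4 falls. Gclm and Pgd were lost without each array, and Srxn1 and Gstm1 without untreated replicate 1 or 3 or treated replicate 1 or 2 (up to 0.179). At 10 uM, 7 of the 21 were called lower against the same untreated arrays, where 0.672% of all genes were, a count for which no alternative was run. Nqo1 is also a target of the aryl hydrocarbon receptor, and of 9 such targets 2 fell, the second being Cyp1b1. Cyp1b1, a cytochrome P450, read 9.94, 9.79 and 9.82 against 8.85, 8.83 and 8.84 (-1.01 ± 0.08; adjusted p = 6.43e-06).

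The ATF4 and unfolded protein response list, which covers amino acid supply and protein folding, leaned up. Of 29 measured, 3 rose and 0 fell, 24 were positive and the median was 0.19. Slc7a5, a transporter of large neutral amino acids, read 8.87, 8.61 and 8.70 against 9.52, 9.32 and 9.53 (0.73 ± 0.10; adjusted p = 0.000557). Trib3, a pseudokinase induced by ATF4, rose by 0.70 (adjusted p = 0.00458), and Vldlr, a lipoprotein receptor, by 0.61 (adjusted p = 0.0181). The Vldlr call was lost without untreated replicate 2 or 3 or treated replicate 1 or 2 (up to 0.0977). Asns and Ddit3, named after their values were seen, stood at 0.26 and 0.18 (adjusted p = 0.0854 and 0.646).

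Sterol synthesis genes leaned down. Of 20 measured, 2 fell and 0 rose, but 2 alone were positive and the median was -0.20. Hmgcs1, which makes the precursor of mevalonate, read 7.92, 7.91 and 7.83 against 7.47, 7.37 and 7.35 (-0.49 ± 0.09; adjusted p = 0.00581). Nsdhl, a late enzyme of the pathway, fell by 0.43 (adjusted p = 0.0273), a call lost without any 1 of the 6 arrays (up to 0.103). Insig1, a target of the same regulator, named after its value was seen, differed by -0.38 (adjusted p = 0.0821). At 10 uM the median of these 20 genes was 0.14, and no member was called against the same untreated arrays. Set against the 10 uM arrays directly, 3 members, Hmgcs1, Fdps and Nsdhl, were lower at 1 uM (adjusted p = 0.00822, 0.0346 and 0.0459), where 0.196% of all genes were. None of the 3 passed when just these 6 arrays were fitted or without AG1296 1 uM replicate 2 or AG1296 10 uM replicate 1. Fdps was also lost without each other array of the 6, and Nsdhl without each but AG1296 10 uM replicate 3 (up to 0.192). Scd2, a fatty acid desaturase, was the 1 gene called of 16 in fatty acid synthesis (-0.37; adjusted p = 0.0378), a call lost without any 1 of the 6 arrays (up to 0.148).

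Promoters of these 3 lists were searched for the element of each regulator in the 250 bases before the RefSeq start site (GRCm38.p6), on both strands. The antioxidant response element TGACNNNGC stood in 4 of the 17 NRF2 genes with a promoter sequence, namely Gclm, Gsta3, Prdx1 and Txnrd1, and in 11.5% of all genes. The ATF4 element TGATGNAA stood in 6 of 25 ATF4 list genes, namely Asns, Chac1, Herpud1, Nupr1, Slc7a11 and Vldlr, and in 3.91% of all genes. The sterol response element stood in 0 of 16 sterol genes and in 0.226% of all genes. Of the called members, Gclm and Vldlr held a match, so the stretch around each is shown, with the match in capitals and read 5′ to 3′ on the gene's plus strand. The stretch of Gclm, the modifier subunit of glutathione synthesis, is chr3:122245363-122245491, and its match starts 134 bases before the start site. That of Vldlr is chr19:27216770-27216887, with the match 200 bases before. Both matches read the element on the opposite strand, and a match of letters is a description and not a binding site.
Gclm: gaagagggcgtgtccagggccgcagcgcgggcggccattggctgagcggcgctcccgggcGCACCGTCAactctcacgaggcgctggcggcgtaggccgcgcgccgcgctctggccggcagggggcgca
Vldlr: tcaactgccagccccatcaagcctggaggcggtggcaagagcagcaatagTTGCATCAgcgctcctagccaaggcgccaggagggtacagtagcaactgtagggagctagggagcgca

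Scn7a had the largest log2 fold change of all called genes that rose. This sodium-sensing channel gene read 4.64, 4.77 and 4.61 untreated and 6.69, 6.85 and 6.74 at 1 uM, a 4.25-fold difference (2.09 ± 0.13; adjusted p = 9.68e-07). Npy1r, a neuropeptide Y receptor, read 2.72, 2.62 and 2.82 against 4.49, 4.73 and 4.68 (1.92 ± 0.13; adjusted p = 1.22e-06), starting below every array median. Cdo1, which oxidises cysteine, rose from 4.83, 4.63 and 4.48 to 6.24, 6.23 and 6.19 (1.58 ± 0.12; adjusted p = 3.09e-06). No treated array of these 3 genes reached down to an untreated one, which the rule for naming the largest rises required. Rgs4, which shuts off G-protein signals, rose by 1.47, while its relative Rgs16 fell by 1.19 (adjusted p = 0.000187 and 2.27e-05); they were the 2 genes called of 17 RGS and G-protein regulators. Gpc4, a glypican, rose from 8.96, 8.95 and 8.85 to 10.02, 10.03 and 9.98 (1.09 ± 0.08; adjusted p = 3.09e-06). The proteolipid genes Gpm6a and Gpm6b rose by 1.13 and 1.09, Grb14, an adaptor that inhibits the insulin receptor, by 1.09, and Prkcq, a protein kinase C, by 1.10 (adjusted p = 0.000379, 1.27e-05, 1.78e-05 and 0.000471). Tln2, talin, rose by 1.16, Clmp, a junction protein, by 1.26, and Ccdc80, a secreted matrix-binding protein, by 1.36 (adjusted p = 1.27e-05, 7.27e-06 and 1.15e-06). Afap1l2, an adaptor of SRC signalling, Ms4a4d, a membrane protein gene, and Tenm3, a teneurin of cell adhesion, rose by 1.21, 1.16 and 1.08 (adjusted p = 1.9e-05, 3.84e-05 and 0.000912). Peg10, an imprinted gene of retroviral origin, rose by 1.28 (adjusted p = 3.09e-06), and Dcn and Peg10 were the 2 rises among 18 imprinted growth genes. Slc38a4, an amino acid transporter, was the 1 fall (-0.64; adjusted p = 0.0219), lost without any array but untreated replicate 2 (up to 0.101).

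Prl2c5 and Nrn1 fell most of all called genes. Nrn1, neuritin, read 7.14, 7.33 and 7.20 untreated and 4.12, 4.78 and 4.76 at 1 uM, a 6.37-fold lower level (-2.67 ± 0.15; adjusted p = 5.38e-07). Prl2c5, 1 of several near-identical proliferin genes and so of uncertain identity, read 4.84, 4.58 and 4.34 against 1.64, 1.96 and 1.86 (-2.77 ± 0.22; adjusted p = 6.43e-06). Cd24a, a surface glycoprotein, read 5.58, 5.94 and 5.85 against 3.80, 3.95 and 3.58 (-2.01 ± 0.15; adjusted p = 3.5e-06). Prl2c5 and Cd24a ended below every array median. None of these 3 genes had overlapping groups, which the rule for naming the largest falls required. Prkar2b, a regulatory subunit of protein kinase A, read 8.14, 8.28 and 8.13 against 6.70, 6.83 and 6.53 (-1.50 ± 0.11; adjusted p = 3.46e-06). Hmga2, a chromatin protein of growing mesenchyme, fell by 1.39, Htr2a, a serotonin receptor, by 1.28, and Ptprb, a receptor phosphatase, by 1.27 (adjusted p = 3.84e-05, 1.36e-05 and 1.92e-06). Tes, a focal adhesion protein, fell by 1.21, Slc5a3, an inositol transporter, by 1.08, Slc40a1, the iron exporter, by 1.11, and Kcnmb1, a potassium channel subunit, by 1.30 (adjusted p = 1.15e-06, 2.39e-06, 0.000379 and 0.000145). Plac8, Serinc2, Hecw1, Gsto2, C3ar1, Lrrc3b and Ptn fell by 1.07 to 1.69, with adjusted p of 5.21e-06 to 0.00145.

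**Figure D3:**
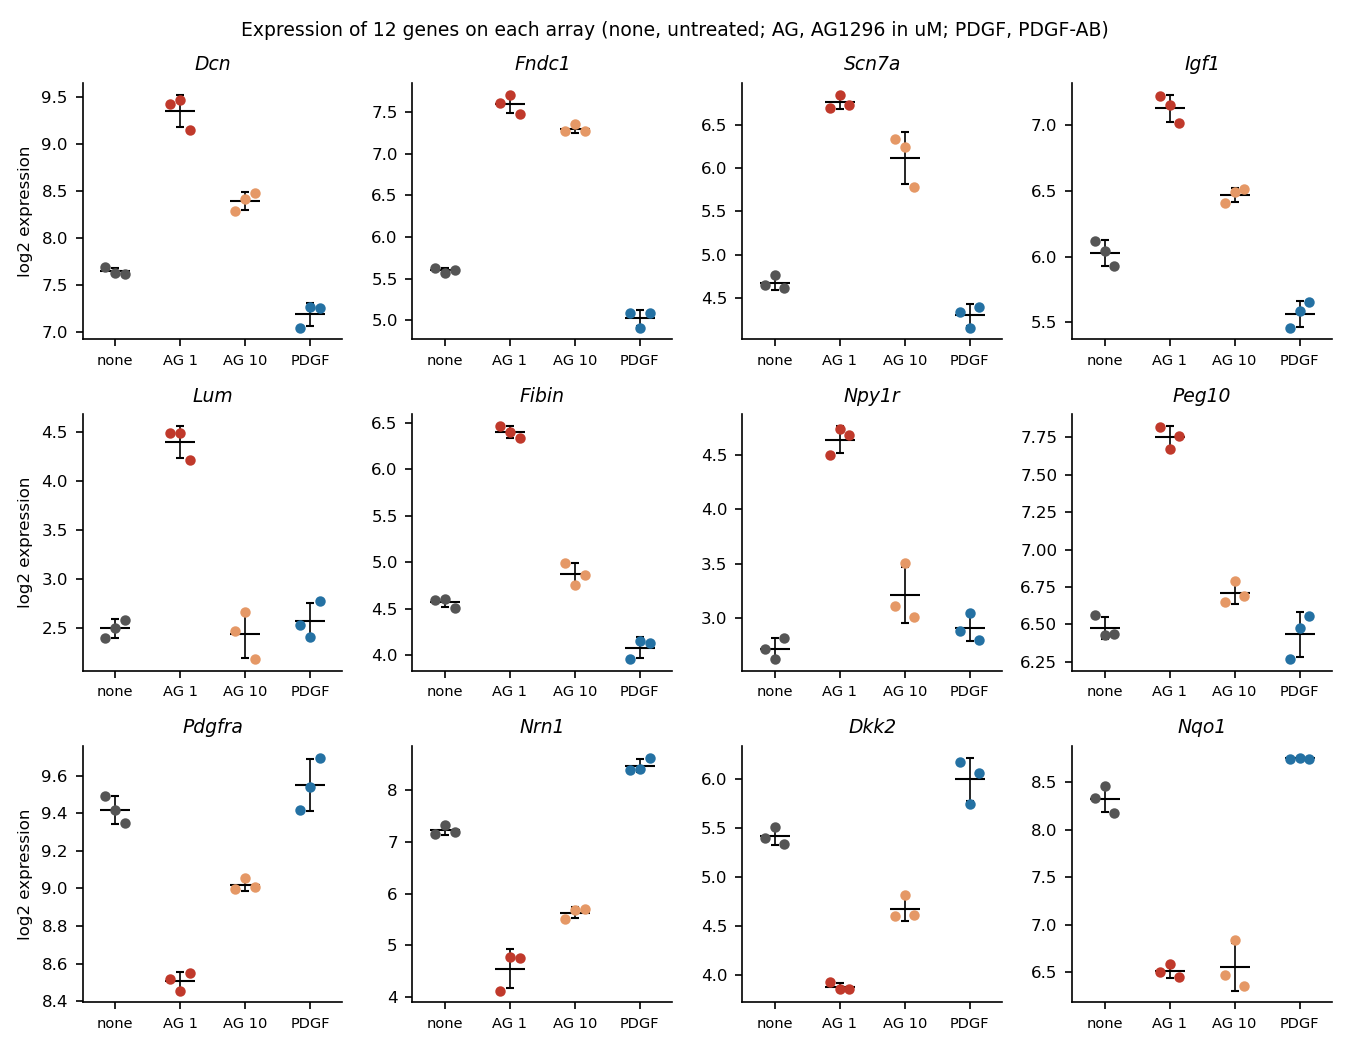
Log2 expression (y axis) of 12 genes on each of the 12 arrays, in 4 groups along the x axis (untreated, AG1296 1 uM, AG1296 10 uM and PDGF-AB), with 1 dot per array and a bar at the mean ± SD of 3 arrays. Scn7a and Dcn sit highest at 1 uM, Pdgfra and Dkk2 lowest, and the 1 uM dots of Lum lie above those of the 3 other groups.

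The 1 uM arrays were set against the 10 uM arrays to find genes whose level differed with dose. The difference of means uses no untreated array, but its error and p-value come from the fit of all 12 arrays, untreated ones included. Of 19938 genes 75 (0.376%) were called by limma, of which 36 (0.181%) were higher and 39 (0.196%) lower at 1 uM. The 8 largest differences in each direction are described here, with small nuclear, nucleolar and ribosomal RNAs left out; Snord15b, a nucleolar RNA that was lower at 1 uM by 0.77 (adjusted p = 0.0345), would otherwise stand among them. Lum read 4.49, 4.49 and 4.21 at 1 uM and 2.46, 2.65 and 2.18 at 10 uM (1.96 ± 0.13; adjusted p = 1.22e-05), and all 3 of the latter lay near the untreated values of 2.39 to 2.58. Fibin read 6.47, 6.40 and 6.34 against 5.00, 4.75 and 4.86 (1.53 ± 0.09; adjusted p = 4.68e-06). Npy1r read 4.49, 4.73 and 4.68 against 3.12, 3.51 and 3.01 (1.42 ± 0.13; adjusted p = 0.000216). For these 3 genes the change at 10 uM against untreated was -0.06, 0.30 and 0.49 and did not pass (adjusted p = 0.935, 0.153 and 0.0736), but both doses are read against the same untreated arrays. Cdo1, Peg10 and Dcn were higher at 1 uM by 1.16, 1.04 and 0.96 (adjusted p = 0.000553, 0.000216 and 0.000998). Ccl17, a chemokine, was higher by 0.85 (adjusted p = 0.000553). Slc7a11, the cystine importer, was higher at 1 uM than at 10 uM by 0.92 (adjusted p = 0.00491), with the untreated values of 6.61 to 6.83 lying between those of 10 uM (6.02 to 6.31) and 1 uM (6.99 to 7.19).

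Among the genes lower at 1 uM than at 10 uM, Mcam read 6.08, 5.88 and 5.87 at 1 uM and 6.69, 6.80 and 6.82 at 10 uM (-0.83 ± 0.09; adjusted p = 0.0011). Nrn1 read 4.12, 4.78 and 4.76 against 5.52, 5.68 and 5.70 (-1.08 ± 0.15; adjusted p = 0.00779), and Dkk2 3.92, 3.85 and 3.85 against 4.59, 4.82 and 4.60 (-0.80 ± 0.11; adjusted p = 0.00779). For each of these 3 genes the 10 uM values lay between those of 1 uM and of untreated cells. Plac8, Diras2, Galnt18, Clca3a1 and Hecw1 were lower at 1 uM by 0.68 to 0.88 on the log2 scale (adjusted p = 0.0421, 0.0459, 0.0161, 0.0316 and 0.0288). Clca3a1 belongs to a family of near-identical genes. Diras2 did not pass between 1 uM and untreated (-0.16; adjusted p = 0.719). Of the list genes, named after their values were seen, Ccnd1 was lower at 1 uM by 0.53, Hmgcs1 by 0.61 and Scd2 by 0.65 (adjusted p = 0.00992, 0.00822 and 0.00724), and Igf1, Vegfc and F3 were higher by 0.66, 0.63 and 0.77 (adjusted p = 0.00779, 0.00476 and 0.0138). Of these 6, F3 alone passed when just the 6 arrays were fitted. Scd2 was also lost without AG1296 10 uM replicate 1, and Hmgcs1 and Igf1 without that array or AG1296 1 uM replicate 2. Ccnd1 was lost without AG1296 1 uM replicate 1 or 2 or AG1296 10 uM replicate 1 or 3, and F3 without AG1296 1 uM replicate 2 or 3 or AG1296 10 uM replicate 1 or 3 (up to 0.0828). The count of 75 was 26, 16 or 29 without AG1296 1 uM replicate 1, 2 or 3 and 16, 39 or 19 without AG1296 10 uM replicate 1, 2 or 3. Of the 16 differences described first, 9 were called under every alternative. Nrn1 was lost without AG1296 10 uM replicate 3 and when just these 6 arrays were fitted, and Dkk2 without AG1296 1 uM replicate 2. Hecw1, Diras2 and Clca3a1 were lost without any 1 of the 6 arrays, Galnt18 without any but AG1296 1 uM replicate 3 and Plac8 without any but AG1296 10 uM replicate 2 (adjusted p up to 0.191).

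**Figure D4:**
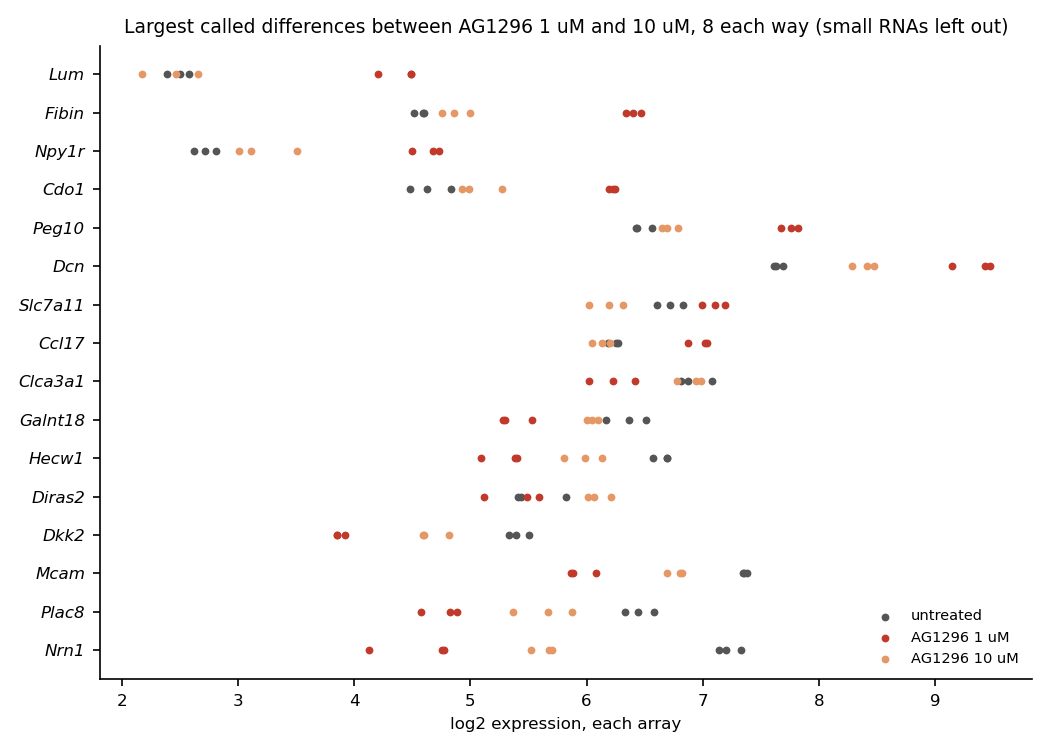
Log2 expression (x axis) of the 16 genes with the largest called differences between AG1296 1 uM and 10 uM, 8 each way and small RNAs left out, 1 row per gene and 1 dot per array, with 3 arrays each of untreated (grey), 1 uM (red) and 10 uM (orange). For Lum the 10 uM dots lie among the untreated ones, and for Mcam they lie between the untreated and the 1 uM dots.

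Some small structured RNAs and replication-dependent histone genes fell at 1 uM, 2 classes that were chosen after their values were seen. These transcripts are short, highly structured or end in a stem-loop in place of a poly(A) tail. Of 71 small nuclear, nucleolar, Y, ribosomal and RNase RNAs 16 (22.5%) were called lower and 0 higher, where 1.33% of all genes were called lower. Of the 71, 56 were negative and the median was -0.24, where 10635 of all 19938 genes were negative. The median level of the class was 4.53, 4.69 and 4.40 on the untreated arrays and 4.02, 4.15 and 3.96 on the 1 uM arrays, without overlap. Rpph1, the RNA of RNase P, read 12.78, 12.66 and 12.75 against 11.20, 11.28 and 11.61 (-1.36 ± 0.21; adjusted p = 0.00172), and Rmrp, its relative in RNase MRP, fell by 1.43 (adjusted p = 0.00488). Rn7sk, which restrains transcription elongation, fell by 0.74 ± 0.11 (adjusted p = 0.00126). Rny3, a Y RNA, read 9.02, 8.98 and 8.99 against 6.58, 6.35 and 6.41, a difference of -2.55 ± 0.55 (adjusted p = 0.0201), whose error comes from all 12 arrays. Its 10 uM arrays read 6.79, 6.88 and 9.60, so that replicate 3 stood apart from the other two. Its call was lost without any 1 of the 6 arrays (up to 0.0926 over all alternatives). Of 28 histone genes, members of families of near-identical copies, 10 (35.7%) were called lower and 0 higher, 27 were negative and the median was -0.39. H2bc18 read 6.22, 5.99 and 6.10 against 5.34, 5.46 and 5.42 (-0.70 ± 0.10; adjusted p = 0.0013), and H4c4 fell by 0.47 (adjusted p = 0.00548). The medians at 10 uM were -0.16 and -0.23, and with PDGF-AB 0.00 and 0.09, all read against the same untreated arrays. At 10 uM the median level of the small RNAs was 4.12, 4.06 and 4.27 by array. In the third of these arrays Rmrp read 10.70 against 9.77 and 9.23, and Snord49b 6.97 against 5.62 and 5.63. The 10 uM value thus mixes 1 array that stood higher with the others. With PDGF-AB, replicate 3 also stood higher for Rny3 (9.14 against 8.05 and 8.08) and Snord49b (7.08 against 6.42 and 6.43). Rmrp and Rpph1 differed less there (10.61 against 10.46 and 10.43, and 12.78 against 12.75 and 12.75). The part of such shifts between arrays in the fall at 1 uM was not tested. Leaving out 1 array left 6 to 9 calls in the first class and 5 to 8 in the second: 6, 8 and 9 small RNAs were called when treated replicate 1, 2 and 3 was dropped, and 8, 6 and 8 when untreated replicate 1, 2 and 3 was. For the histones these counts were 6, 6 and 6, and 6, 5 and 8.

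Higher calls were also most frequent among the genes with the longest span on the genome, again looked at after values were seen. Protein-coding genes with a mean above 5 over all 12 arrays were split into 5 groups of equal number by RefSeq genomic span. Of the 1690 genes of the shortest group, with a median span of 4.75 kb, 36 were called higher and 41 lower. Of the 1690 of the longest group, with a median span of 119 kb, 132 were called higher and 52 lower. The groups between, in order of span and of 1689 genes each, held 36, 47 and 55 called higher and 40, 34 and 40 called lower. Over all genes tested, dim ones included, 1.88% were called higher and 1.33% lower. The median log2 fold change was -0.01 in the shortest and 0.04 in the longest group. Per the labels, RNA with an integrity number above 8 was used, and the part of RNA quality in these patterns was not tested. Genomic span is not transcript length.

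**Figure D5:**
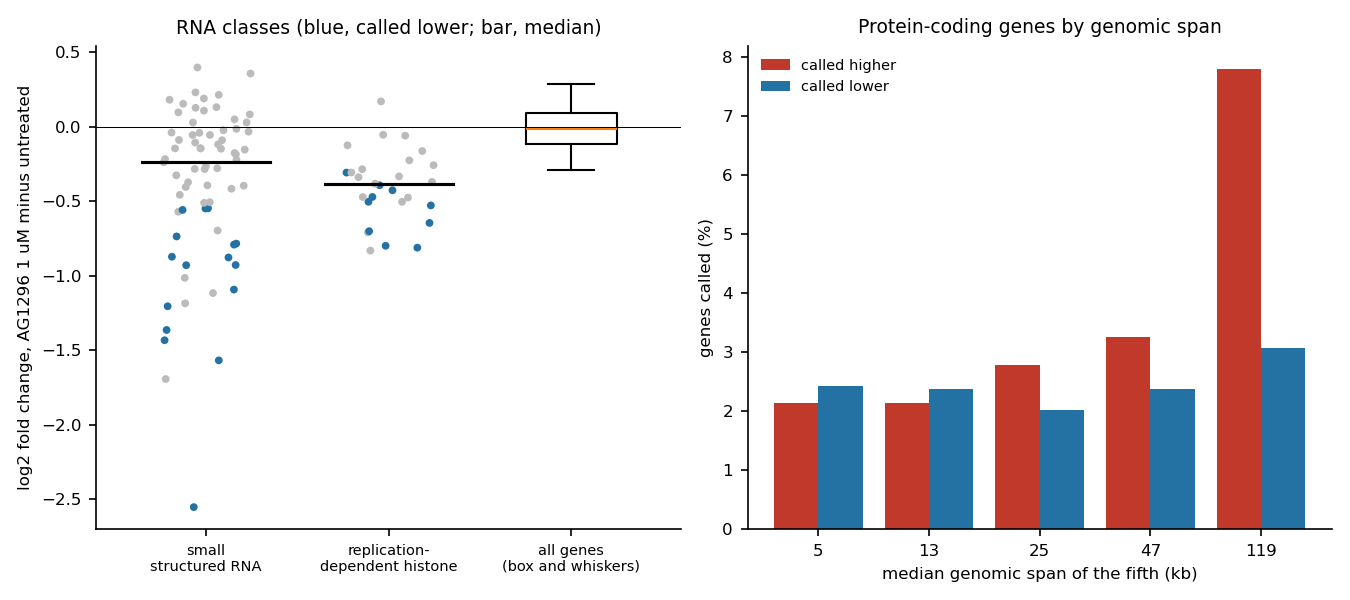
Left, the y axis is the log2 fold change, AG1296 1 uM minus untreated, of 71 small structured RNAs and 28 replication-dependent histone genes (1 dot per gene, blue where called lower, black bar at the median), beside all genes, whose box spans the middle quartiles with a line at the median and whiskers from the 5th to the 95th percentile. Right, bars give the percentage of protein-coding genes called higher or lower (y axis) in 5 groups by genomic span (x axis, median span in kb), and the red bar is tallest in the group with a median span of 119 kb.

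The remaining lists differed in their share of called genes, which was 3.2% over all genes. It was 5% of the interferon response, 12.5% of the complement, 5.88% of the p53 and 13.8% of the ion channel list. None of 18 glycolysis, 22 ribosomal protein, 15 cardiomyocyte, 18 leukocyte or 10 Schwann cell genes was called by limma. Lists this short can hold no call at a share of 3.2%. The ribosomal proteins ranged from -0.09 to 0.21. The median of the ribosomal list was 0.03, and after quantile normalization it was -0.01. Ifit3 was the 1 gene called of 20 interferon response genes (0.74; adjusted p = 0.000275). Among 16 complement genes Masp1 fell by 0.51 (adjusted p = 0.00532), and Cd55 rose by 0.83 (adjusted p = 0.0468), a call lost without any array but AG1296 1 uM replicate 3 (up to 0.188). Plk2 was the 1 gene called of 17 p53 targets (-0.50; adjusted p = 0.0155), lost without untreated replicate 1 or 2 or treated replicate 1 or 3 (up to 0.0756). Of 29 ion channel genes Scn7a and Kcnt2 rose, the latter by 0.84 (adjusted p = 0.0103), and Kcnd3 and Trpc6 fell by 0.60 and 0.67 (adjusted p = 0.012 and 0.0435). Kcnt2 was lost without AG1296 1 uM replicate 2, Kcnd3 without untreated replicate 1 or 3 or treated replicate 1 or 2, and Trpc6 without any but untreated replicate 2 (up to 0.188).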

How the data were processed

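The deposited table holds log2 expression values that the authors made with RMA, with limma also named, per the submitters' processing notes; the log base was inferred from their range, 0.639 to 14.3. Of 28853 probe sets, 21789 had 1 gene symbol in the platform annotation, and the brightest per gene gave 19938 genes. limma 3.58.1 (R 4.3.3) fitted all 12 arrays with a mean per group and empirical Bayes moderation, with calls at an adjusted p under 0.05 (Benjamini-Hochberg over all genes). On simulated data (200 changed genes, 5 sets) this recovered 53% of log2 changes of 0.5 and 98.6% of changes of 1, and 4.92% of calls were false. The simulated noise was normal and independent between genes and arrays, with no batch or outlying array. It therefore cannot show how many calls such effects make false in the real arrays.

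The comparison and the 54 gene lists (1083 genes, 1012 measured) were chosen with earlier results of these data known. Genes named are the 30 largest called changes in each direction and the 8 largest dose differences each way. Called members of each list (up to 8) and the PDGF genes are named too. The largest changes and dose differences were taken only from genes whose compared groups did not overlap. Their lack of overlap was therefore set by the rule. Predicted genes, olfactory receptors, microRNAs and other small structural RNAs such as nucleolar ones were meant to be outside this rule. That kept 5 small RNAs out of the largest falls and 1 out of the dose differences. The Y RNA Rny3 was not recognised as such and was counted among the 30 largest falls. Other genes are said to be named after their values were seen. The number of arrays limits the precision. Alternatives were 6 arrays alone, a replicate block, median centring, quantile normalization, a filter on dim genes, all single-symbol probe sets, an intensity trend with robust moderation, and each array left out. Genes without a single-symbol probe set were not analysed here.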

Additional observations from a re-analysis of the deposited data

How the results depend on the processing

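All 190 named called genes kept their direction under every alternative and 127 kept their call; 63 lost it in 1 or more. Of the list medians 4, all within 0.03 of 0, turned sign after quantile normalization: immediate early factors (0.00 to -0.01), osteochondrogenic genes (-0.01 to 0.01), fatty acid synthesis (0.00 to -0.02) and ribosomal proteins (0.03 to -0.01). The 639 calls for 1 uM against untreated (374 higher, 265 lower) became 1010 (567 and 443) with an intensity trend and robust moderation, and the lower ones 416 with dim genes filtered out. With 1 array left out they ranged from 349 to 439, the higher ones from 196 to 263 and the lower ones from 147 to 176. The 75 calls for 1 uM against 10 uM (36 higher, 39 lower) became 14 (11 and 3) with the 6 arrays alone, 158 (76 and 82) with dim genes filtered out and 209 (99 and 110) with the trend, and the lower ones 21 after median centring. With 1 array left out they ranged from 16 to 39, the higher ones from 11 to 19 and the lower ones from 5 to 20. The cause was not tested. Replicate numbers paired the arrays in part: deviations of same-numbered arrays correlated at 0.0105, 0.298 and 0.1751. AG1296 1 uM replicate 2 gave -0.0812 and -0.2215 with the other untreated arrays, and replicate 3 gave 0.0722 and -0.2433. AG1296 1 uM replicate 1 correlated best with untreated replicate 3 (0.0547). A batch linked to replicate number was not tested beyond the replicate block. With the replicate block 666 genes were called (388 higher, 278 lower), 593 of them among the 639, and 77 (39 and 38) between doses. Of the 374 higher genes 30 had an untreated mean below every array median, and of the 265 lower genes 31 had such a 1 uM mean, where background compresses the fold change.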

Other observations

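Genes of cyclic nucleotide signalling moved apart at 1 uM, in families looked at after values were seen and without an alternative fit of their own. Of 18 phosphodiesterases, which break down cAMP and cGMP, 5 rose and 1 fell, and the median was 0.02. Over all genes 1.88% rose and 1.33% fell. Pde7b, Pde8a, Pde5a, Pde1a and Pde3b rose by 0.79, 0.72, 0.70, 0.66 and 0.58 on the log2 scale (limma adjusted p = 0.00611, 0.0148, 0.0146, 0.0026 and 0.012), and Pde1b fell by 0.56 (adjusted p = 0.00203). Gucy1b1, a subunit of the nitric oxide receptor that makes cGMP, read 7.81, 7.83 and 7.71 untreated and 6.75, 6.96 and 6.94 at 1 uM (-0.90 ± 0.11; adjusted p = 0.000246). Prkg1, the kinase that cGMP activates, read 6.26, 6.09 and 6.01 against 6.86, 6.80 and 6.64 (0.65 ± 0.10; adjusted p = 0.00245). None of 10 adenylate cyclases was called by limma.

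The gene sets below were also looked at after values were seen, without an alternative fit of their own. The enzyme and receptor sets were picked by hand and hold Cdo1, Npy1r and Htr2a, already named among the largest changes. Their counts are therefore no independent result. Over all genes 1.88% were called higher and 1.33% lower. Of 12 enzymes of glycine and sulfur amino acid metabolism 4 rose, Cdo1 among them, and 1 fell, with 6 positive and a median of 0.04. Sardh, which demethylates sarcosine, read 5.88, 5.86 and 5.89 against 6.79, 6.83 and 6.85 (0.95 ± 0.09; adjusted p = 2.67e-05), and Gldc, which cleaves glycine, rose by 0.68 (adjusted p = 0.00458). The fall was that of Gatm (-0.75; adjusted p = 0.012). Of 4 transcription factor genes of the nuclear factor I family 2 rose and 0 fell. Nfib and Nfix rose by 0.74 and 0.67 (adjusted p = 0.00207 and 0.000307). Of 12 hormone and cytokine receptor genes 5 rose and 2 fell, with a median of 0.07. Il6st, the shared receptor chain of the IL-6 family, read 10.03, 10.10 and 10.01 against 10.70, 10.73 and 10.68 (0.65 ± 0.08; adjusted p = 0.000347). Osmr, its partner for oncostatin M, rose by 0.46 (adjusted p = 0.0181), while Lifr stood at 0.04 (limma adjusted p = 0.955).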
